A study of Mus musculus with 4 samples.

Results

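NR4A, EGR and NFAT transcription factors link receptor signals to gene activation in lymphocytes, and the accessible chromatin around 9 of their genes was described in cultured mouse natural killer (NK) cells. The genes were Nr4a1, Nr4a2, Nr4a3, Egr1, Egr2, Egr3, Nfatc1, Nfatc2 and Nfatc3. A region was counted for 1 of them when no other protein-coding gene had its span closer to the region. Of genes equally close, the one with the nearer end was taken, and then the first by symbol. This gave 131 of the 91266 accessible regions of the series. Of these, 38 belonged to NR4A genes, 23 to EGR genes and 70 to NFAT genes. A region that overlaps a gene span, in part or in full, is called inside or within the gene. The regions came from ATAC-seq, in which a transposase cuts open chromatin and tags it for sequencing. The cells were wild-type C57BL/6 NK cells, described in the series title as splenic, kept for 72 h in a high dose (HD) or a low dose (LD) of interleukin-15 (IL-15), the cytokine on which NK cells depend. There were 2 samples per dose, 4 in all, and the labels give neither the concentrations nor whether samples of a dose came from different mice.

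The authors deposited positions only, as 1 list of all regions and 2 lists, up and down, of those called different in the comparison of the doses. No read count, fold change or p-value accompanies a region, so sequencing depth is unknown, no value below carries a replicate error, and the calls are the authors' own. Which dose was the reference is not stated, and up and down are therefore the names of the lists and not directions with respect to HD or LD. All coordinates are 1-based on mm10, the build in the submitters' processing notes, whose chromosomes are those of the GRCm38 gene table. Of 32851 transcription start sites in the RefSeq promoter table, 39.8% lay in an accessible region, against 3.07% and 3.06% after moving the sites by 100 kb. NK cell identity was checked on marker genes. All 8 NK markers, among them Ncr1, Eomes and Tbx21, had a gene end or start site in a region, compared with 3 of 6 T cell and 3 of 6 myeloid markers. No region lay in the T cell genes Cd4 and Cd8a, the B cell genes Cd79a and Ms4a1 or the myeloid gene Lyz2. Other genes of these lists did hold regions, with 12 in Ebf1 and 6 in Pax5 (B cell), 8 in Itgam and 6 in Spi1 (myeloid) and 5 in Bcl11b (T cell).

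The 3 families take part in the activation response in different ways. NFAT proteins wait in the cytoplasm until calcium activates the phosphatase calcineurin, which removes phosphates and lets them enter the nucleus. EGR proteins are zinc finger factors made within minutes of ERK signalling through serum response factor, which binds the CArG box. NR4A proteins are orphan nuclear receptors whose genes are switched on rapidly by calcium and cyclic AMP, in part through cyclic AMP response elements (CREs), and which in T cells are known for restraining effector function. In NK cells, activating receptors signal through calcium and ERK, and so reach both NFAT and EGR factors.

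Promoters of 5 members are shown first, each from a start site covered by an accessible region. The 4 NR4A and Egr2 windows shown hold a short element that the Nfatc3 promoter also has in 1 of its 2 windows, and the Nfatc2 promoter, which lacks it, is shown beside them because the widest of the 131 regions covers its start site. Each line gives the 250 bases before a start site from the RefSeq table (GRCm38.p6), 5′ to 3′ on the gene's strand. Capitals mark 3 elements searched on both strands: the short CRE core TGACG, whose other strand reads CGTCA, the EGR site GCGGGGGCG, whose other strand is printed where it matched, and the CArG box. The windows are chr15:101266596-101266845 (plus strand) for Nr4a1, chr2:57124004-57124253 (minus strand) for Nr4a2, chr4:48045055-48045304 (plus strand) for Nr4a3, chr10:67537680-67537929 (plus strand) for Egr2 and chr2:168590366-168590615 (minus strand) for Nfatc2.
Nr4a1: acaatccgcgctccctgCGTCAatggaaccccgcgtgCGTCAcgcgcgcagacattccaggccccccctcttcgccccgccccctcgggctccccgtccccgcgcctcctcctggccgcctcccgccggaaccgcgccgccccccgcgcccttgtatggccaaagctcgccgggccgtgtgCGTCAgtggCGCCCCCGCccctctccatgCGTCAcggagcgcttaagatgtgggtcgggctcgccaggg
Nr4a2: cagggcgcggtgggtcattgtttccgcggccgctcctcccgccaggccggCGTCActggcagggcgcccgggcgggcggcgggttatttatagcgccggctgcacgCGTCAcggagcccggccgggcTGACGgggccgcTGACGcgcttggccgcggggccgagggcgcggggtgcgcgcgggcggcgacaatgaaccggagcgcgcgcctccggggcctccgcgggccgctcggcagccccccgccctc
Nr4a3: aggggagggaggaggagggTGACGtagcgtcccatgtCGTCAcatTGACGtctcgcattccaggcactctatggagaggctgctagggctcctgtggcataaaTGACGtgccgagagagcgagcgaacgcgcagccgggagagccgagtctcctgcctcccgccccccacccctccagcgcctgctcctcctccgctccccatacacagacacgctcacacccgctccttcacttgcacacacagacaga
Egr2: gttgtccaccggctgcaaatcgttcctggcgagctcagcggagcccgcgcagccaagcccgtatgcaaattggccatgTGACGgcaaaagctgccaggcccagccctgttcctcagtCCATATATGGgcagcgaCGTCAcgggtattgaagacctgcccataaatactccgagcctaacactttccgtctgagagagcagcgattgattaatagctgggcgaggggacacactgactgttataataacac
Nfatc2: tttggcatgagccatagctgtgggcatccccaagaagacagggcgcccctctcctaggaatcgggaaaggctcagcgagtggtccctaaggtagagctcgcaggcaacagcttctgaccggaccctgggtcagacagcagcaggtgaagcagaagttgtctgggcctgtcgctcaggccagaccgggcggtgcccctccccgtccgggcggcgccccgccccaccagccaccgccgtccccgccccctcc

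At least 1 CRE core was in 7 of the 12 member windows, from 5 of 6 genes. Each of the NR4A windows held 4 CRE cores, 3 of the 5 Egr2 windows held 2 and the others 0, and the 2 Nfatc3 windows held 1 and 0. Of all windows in the promoter table, 17.8% held at least 1, and 45 of 32851 windows (0.137%), from 44 of 27025 genes, held at least 4. Since most member start sites lay in a region, the 13081 windows whose start site did so are the closer background. Of these, 27.5% held at least 1 core and 44 (0.336%) held at least 4. The threshold of 4 was chosen after the NR4A values were seen. The shown Egr2 window held 2 CRE cores and a CArG box. At least 2 cores together with a CArG box, at any position in the window, were present in 14 windows (0.0426%) from 12 genes, and in 0.0459% of the accessible ones. This pair was likewise chosen after it was seen. Overlapping windows of 2 further Egr2 start sites contain the same letters. A CArG box with or without cores was in 1.47% of all windows and 0.994% of the accessible ones. The EGR site stood in the Nr4a1 window only among the 12 member windows, from 6 genes, and in 2.57% of all windows and 5.03% of the accessible ones. The shown Nfatc2 window held none of these elements, and the other Nfatc2 window held none either. None of the 12 windows held the NR4A site AAAGGTCA (1.34% of all windows), the full CRE TGACGTCA (1.55%), the EGR variant GCGTGGGCG (0.536%), the AP-1 site TGANTCA (6.75%), the STAT site TTCNNNGAA (7.02%), the RUNX site TGTGGTT (4.40%) or the T-box site TCACACCT (1.12%). Among accessible windows the shares of these 7 sites ran from 0.711% to 5.50%. The NFAT core GGAAA was in 8 of the 12 windows, in 55.6% of all windows and in 52.8% of the accessible ones. A match is a run of letters and not a measured binding event. The G and C content of the 5 shown windows ran from 55.2% at Egr2 to 80% at Nr4a2, on either side of the median of 60.8% over the windows whose start site lay in a region. Over all 12 member windows the lowest was 49.6%, at Nfatc3.

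Start sites of the members were mostly accessible and in neither list. Promoter table entries existed for Nr4a1, Nr4a2, Nr4a3, Egr2, Nfatc2 and Nfatc3, with 12 start sites, of which 10 lay in a region. The Nr4a1 start site lay in a region of 848 bp, that of Nr4a3 in one of 748 bp and that of Nr4a2 in one of 1338 bp. A single region of 1402 bp covered 4 of the 5 Egr2 start sites, and a single region of 1698 bp covered both Nfatc3 start sites. At Nfatc2, only the downstream of its 2 start sites was covered, by a region of 2095 bp that is the widest of the 131. None of these start-site regions was up or down. Over all genes, 1.41% of the 10236 regions that cover a start site were in either list, so an unlisted promoter region is what most genes have. The Nr4a2 start-site region, chr2:57123162-57124499, overlaps the Nr4a2 end but is not among the 131. Its distances to Nr4a2 and to LOC105244150, a predicted gene that overlaps Nr4a2, were tied, and LOC105244150 is first by symbol.

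The dose lists touched 9 of the 131 regions (6.87%), against 5.61% of all regions. In the authors' lists 7 regions (5.34%) were up, against 4.21% of all regions, and 2 (1.53%) were down, against 1.40%. Both shares are near those of the series as a whole. The 7 up regions belonged to Nfatc2 (4 of 27 regions), Nr4a3 (2 of 21) and Nr4a2 (1 of 10). The 2 down regions belonged to Nr4a1 (1 of 7) and Egr1 (1 of 8). No gene had both. Only the Nfatc2 regions were still counted as up when a region had to lie within 50 kb of the gene, or when genes of any biotype could be the nearest. Egr2 (12 regions), Egr3 (3), Nfatc1 (38) and Nfatc3 (5) had no listed region. Without Nfatc2, 3 of 104 regions (2.88%) were up. Counted by gene, 3 of 9 had an up region, against 16.1% of the 16392 genes with any region, and 2 of 9 had a down region, against 5.39%. Either kind was found at 5 of 9, against 20.1%. These genes have a median of 10 regions, against 3 over genes with any region, which gives them more regions that could be listed.

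**Figure D1:**
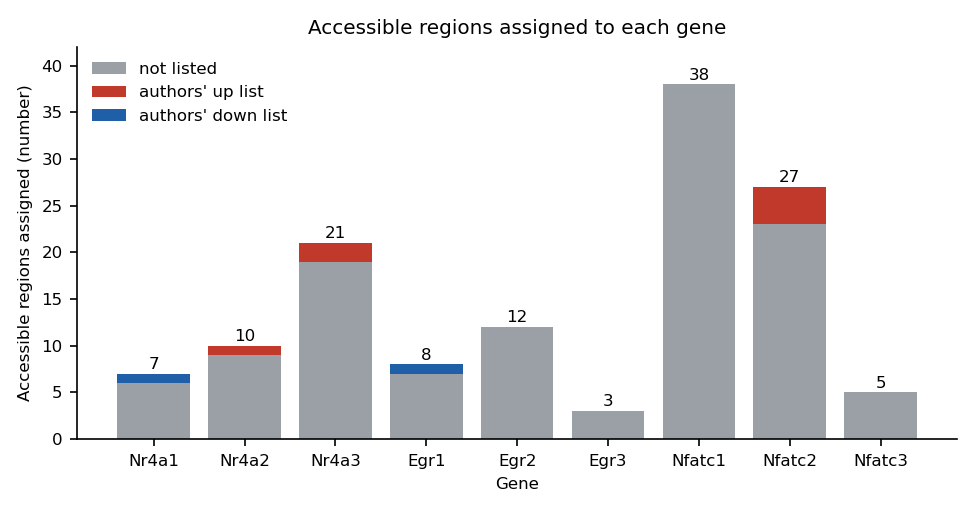
Number of accessible regions (vertical axis) assigned to each of the 9 genes (horizontal axis), split into regions in neither list (grey), in the authors' up list (red) and in their down list (blue), with totals above the bars. Nfatc1 has the most regions, 38, and none is listed, while 4 of the 27 regions of Nfatc2 are up.

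All NR4A, EGR and NFAT regions are placed on their genes in the plot of position and width. There, up regions stand inside Nfatc2 and far outside Nr4a2 and Nr4a3. Down regions stand directly past an end of Nr4a1 and Egr1.

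**Figure D2:**
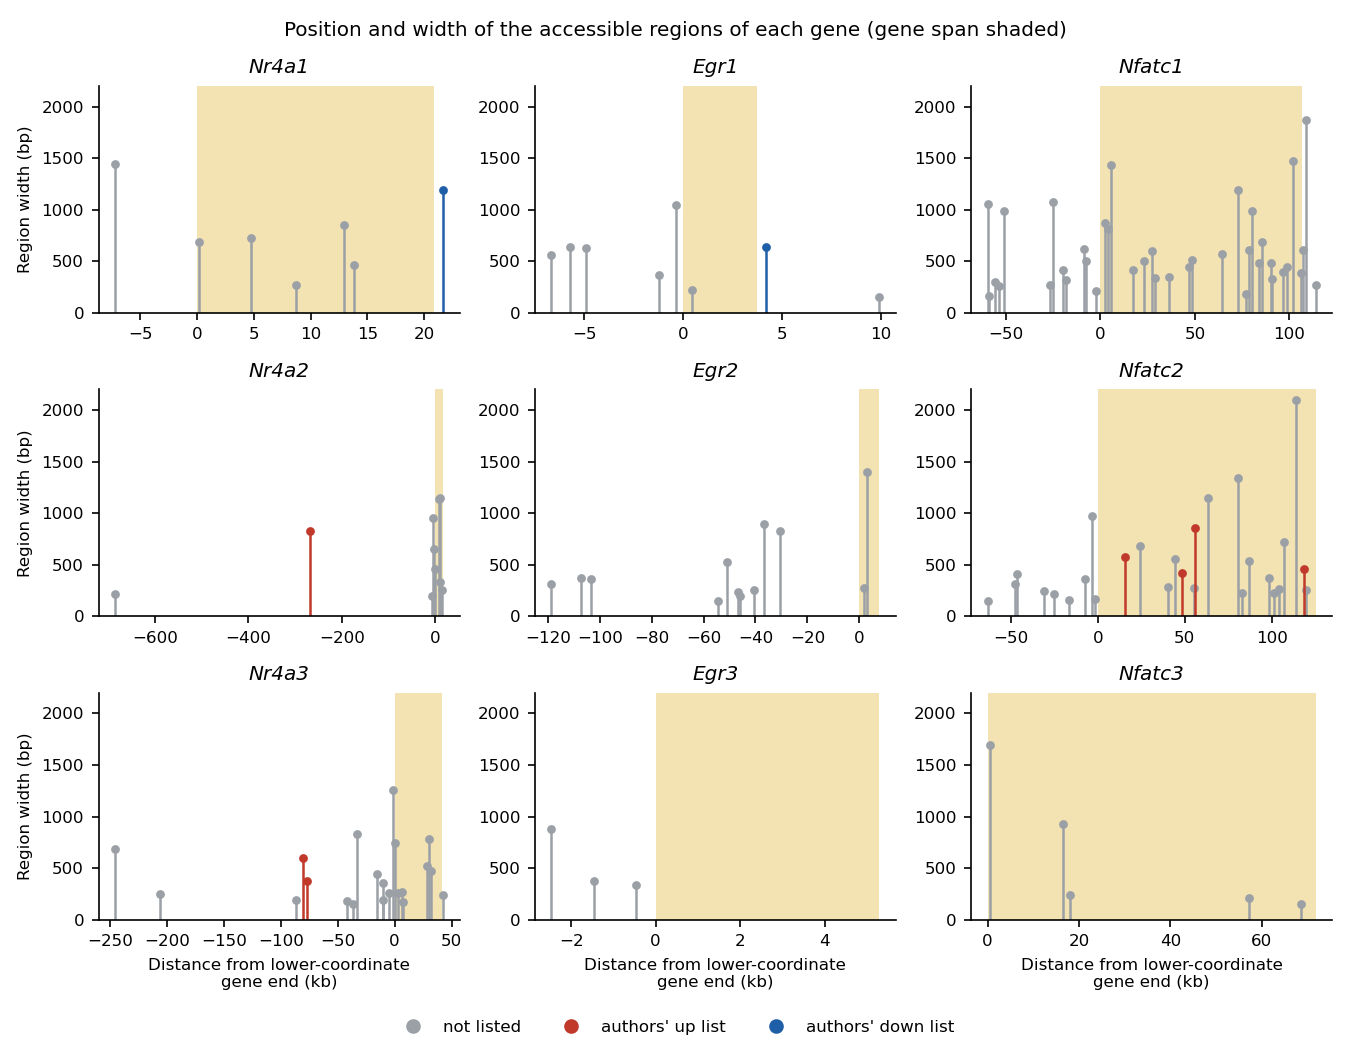
Each panel is a gene, with distance from its lower-coordinate end in kb (horizontal, scaled per panel) and region width in bp (vertical), the gene span shaded, and regions coloured as unlisted (grey), up (red) or down (blue). The up regions of Nfatc2 lie within the span, those of Nr4a2 and Nr4a3 lie 269 kb and 77.2 to 79.8 kb below it, and the down regions of Nr4a1 and Egr1 lie within 183 bp of the span.

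Nfatc2 encodes NFAT1, the NFAT protein already present in resting lymphocytes. The gene is on chromosome 2 from 168476410 to 168601657, a span of 125 kb on the minus strand, with 18 regions inside it and 9 beyond its downstream end. All 4 of its up regions lay inside the gene. The first in the direction of transcription was chr2:168594697-168595150, 454 bp wide and centred 6.73 kb after the upstream start site, between the 2 start sites, which are 11.3 kb apart. It was separated by 3.08 kb from the unlisted 2095 bp region at the downstream start site. A pair of up regions lay near the middle of the gene, chr2:168531859-168532712 (854 bp) and chr2:168524877-168525291 (415 bp), with 6.57 kb and 1 unlisted region between them. The last, chr2:168491762-168492332 (571 bp), was 32.5 kb further on. Unlisted regions stood close to several of these: one of 275 bp was only 0.178 kb from the 854 bp up region, and one of 250 bp was 0.6 kb from the 454 bp up region. The up regions were thus interspersed with 14 unlisted ones inside the gene. Among all regions within gene spans 3.42% were up. Of the 16392 genes with a region, 119 (0.726%) had at least 4 up regions, and 26 had at least 4 up regions, all inside the gene, and no down region. Both patterns were chosen after Nfatc2 was seen. Among the 652 genes with 20 to 40 regions, which is nearer to its 27, 46 (7.06%) had at least 4 up regions and 13 (1.99%) had the second pattern. Exactly 4 up and 0 down regions were found at 56 other genes, of which St8sia1 and Vav3 (27 regions each) and Dlgap1 (25) came nearest to Nfatc2 in number of regions.

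**Figure D3:**
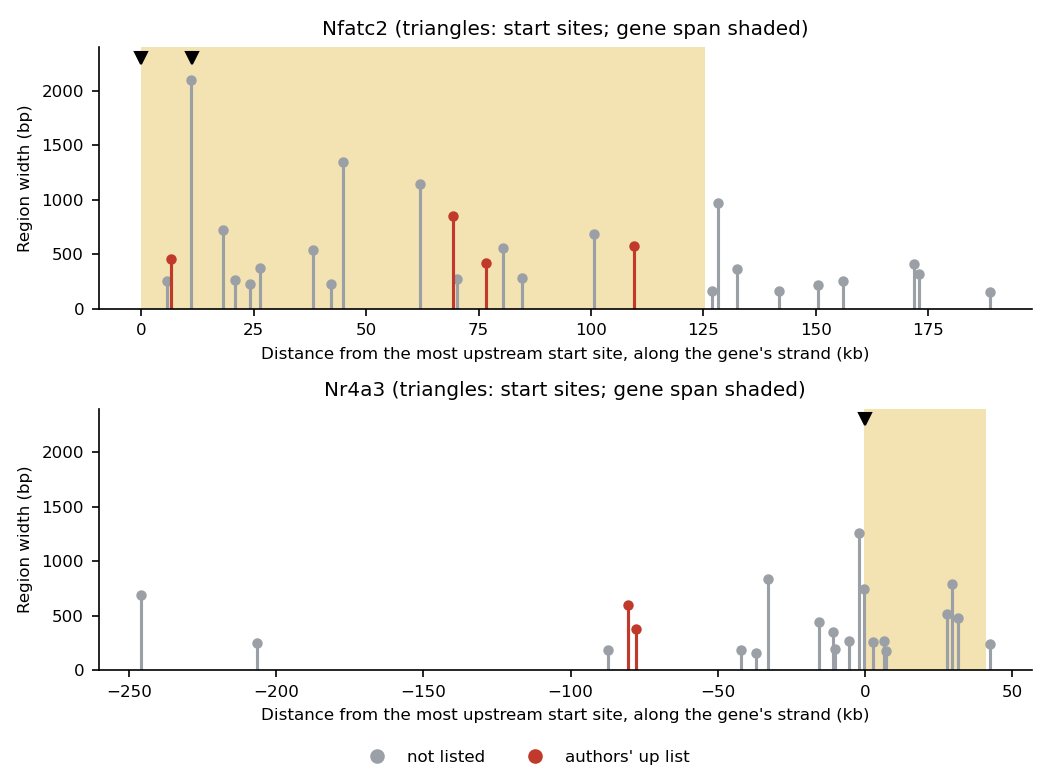
Regions of Nfatc2 (top) and Nr4a3 (bottom) by distance from the most upstream start site along the gene's strand in kb (horizontal) and width in bp (vertical), with start sites as triangles, the gene span shaded, unlisted regions in grey and up regions in red. The 4 up regions of Nfatc2 are centred 6.73, 69.4, 76.6 and 110 kb after its upstream start site, and the 2 of Nr4a3 are 77.6 and 80.4 kb before its start site.

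Nfatc1 encodes NFAT2, whose gene is itself an NFAT target and is induced in activated lymphocytes. It lies on chromosome 18 from 80606205 to 80713071 (107 kb) and had 38 regions, 24 of them overlapping the gene. Together they covered 23.4 kb, the most of the 9 genes. The widest was 1870 bp, chr18:80713871-80715740, 800 bp past the higher-coordinate end, and the region over that end, chr18:80712838-80713442, was 605 bp wide. Only 131 of 21900 protein-coding genes had at least 38 regions, and for 9 of these, Nfatc1 included, none was in either list. Nfatc3, which encodes NFAT4, had 5 regions on chromosome 8, all overlapping its span of 71.7 kb (106058818 to 106130537). Its widest was the 1698 bp region at the start sites, chr8:106058616-106060313, and the others were 156 to 926 bp wide. Density inside the genes was 2.25 regions per 10 kb at Nfatc1, 1.44 at Nfatc2 and 0.697 at Nfatc3. Among the NFAT genes, only Nfatc2, of middle density, had listed regions.

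Nr4a3 encodes NOR1. Its gene lies on chromosome 4 from 48045078 to 48086447 on the plus strand. Of its 21 regions, 7 overlapped the gene and 13 lay on the upstream side, where the next protein-coding gene, Sec61b, is 562 kb away. The up regions were chr4:47964648-47965245 (598 bp) and chr4:47967472-47967849 (378 bp), centred 80.4 and 77.6 kb before the start site. The lncRNA gene Gm52735 lay closer to both, overlapping the first and 1.77 kb from the second, so that neither was assigned to Nr4a3 with genes of any biotype. They were consecutive, with 2.23 kb between them. The nearest region on the far side was unlisted and 6.41 kb away, and the nearest towards the gene was unlisted and 35.2 kb away. The widest Nr4a3 region was unlisted, 1255 bp at chr4:48042596-48043850, 1.23 kb before the gene. Exactly 2 up and 0 down regions were found at 412 other genes, with Bace2, Crybg1 and Disc1 equal to Nr4a3 in having 21 regions.

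Nr4a2 encodes NURR1. The gene, on chromosome 2 from 57106830 to 57124003 on the minus strand, had 10 regions, and 17 when genes named LOC or Gm with a number were left out. Of the 10, 4 were inside and 6 beyond its downstream end, on which side the next protein-coding gene, Kcnj3, is 1509 kb away. The 4 nearest of those 6 lay within 6.62 kb of the gene. The widest of the 10 regions, chr2:57116007-57117153 (1147 bp) and chr2:57114299-57115432 (1134 bp), were inside the gene and unlisted. The start-site region of 1338 bp, also unlisted, is wider but was not assigned to Nr4a2. The up region, chr2:56837268-56838090 (823 bp), lay 269 kb from the gene and 36.0 kb from the lncRNA gene Gm33458, to which it went with genes of any biotype. There was 262 kb free of regions between it and the next one towards Nr4a2. On the upstream side, the region on the first line of the authors' up list, chr2:57190576-57191429 (854 bp), lay 66.6 kb before the Nr4a2 start site. It is not counted here, since the predicted gene Gm52512 was nearer, at 24.7 kb, as was Gpd2, at 46.2 kb. What orders the lists is not stated. Exactly 1 up and 0 down regions were found at 1763 other genes.

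Nr4a1 encodes NUR77, used widely as a reporter of antigen receptor signalling. Its gene is on chromosome 15 from 101253902 to 101274795 on the plus strand, and its 7 regions all lay within 6.48 kb of it. From low to high coordinates they were 1448, 689, 721, 270, 848, 460 and 1187 bp wide. The last, chr15:101274978-101276164, was down and began 183 bp past the downstream end of the gene. The other 6 were in neither list, including the widest, chr15:101245971-101247418, and chr15:101253731-101254419 over the lower-coordinate end. The nearest listed region to the down region was an up region of Krt80, 111 kb away with 10 unlisted regions between.

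Egr1 encodes the immediate early zinc finger factor also called ZIF268 and KROX24. Its compact gene is on chromosome 18 from 34861207 to 34864956, a span of 3.75 kb, and its 8 regions all lay within 6.40 kb of it. A region of 1046 bp, chr18:34860325-34861370, covered the lower-coordinate end and was unlisted. On that side 4 more unlisted regions of 363 to 637 bp followed, and one of 219 bp lay wholly inside the gene. The down region, chr18:34865067-34865701 (635 bp), began 111 bp past the higher-coordinate end. It stood alone, because the nearest other listed region was 873 kb away, a down region of Sting1, with 36 unlisted regions between. Only 38 of the 1275 down regions (2.98%) were at least as far from another listed region. Exactly 1 down and 0 up regions were found at 508 other genes, for Egr1 as for Nr4a1. Abi2 and Ankrd13a match Egr1 in also having 8 regions, and Abhd12 and Agtrap match Nr4a1 in having 7.

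The 2 down regions thus had the same place, directly outside the gene and within 183 bp of an end. Of all 2059 regions that lie outside genes but within 1 kb of the nearest, 26 (1.26%) were down and 60 (2.91%) were up. At the 9 genes there were 4 such regions, and besides the down ones these were the unlisted regions 310 bp from Egr3 and 800 bp from Nfatc1.

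Egr2 and Egr3, zinc finger factors known in T cells for limiting activation, had no listed region. Egr2, on chromosome 10 from 67534469 to 67542188, had 12 regions: 2 inside the gene and 10 between 30.3 and 118 kb on its upstream side. Only 1 of the 12 was counted for Egr2 when genes of any biotype could be nearest. The widest of the distal ones were 895 bp (chr10:67497183-67498077) and 830 bp (chr10:67503353-67504182). Egr3, on chromosome 14 from 70077317 to 70082613, had 3 regions of 875, 377 and 332 bp, all within 2.03 kb of its lower-coordinate end, and none inside. A down region of 942 bp lay 66.3 kb from Egr3, but inside Pebp4, chr14:70010115-70011056.

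Widths of the 131 regions ranged from 150 to 2095 bp with a median of 445 bp, against 400 bp over all regions. Regions of at least 1000 bp were 17 of 131 (13.0%), against 9.21% of all. The medians of single genes ran from 239 bp at Nfatc3 to 721 bp at Nr4a1. The 7 up regions were 378 to 854 bp wide (median 571 bp, against 453 bp for all up regions) and the 2 down regions 635 and 1187 bp (all down regions, median 537 bp). In none of the 9 genes was the widest region listed, where 5.61% of all regions were in either list. How often the widest region of a gene is listed was not counted over all genes. Regions overlapping the gene, in part or in full, were 67 of 131 (51.1%), against 61.1% of all regions. Another 37 (28.2%) lay more than 10 kb outside the gene, against 25.4%. A gene end was overlapped by 5 regions (3.82%), against 10.8% of all. The region over the Nr4a2 start site and end, which went to LOC105244150, is not among the 5.

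**Figure D4:**
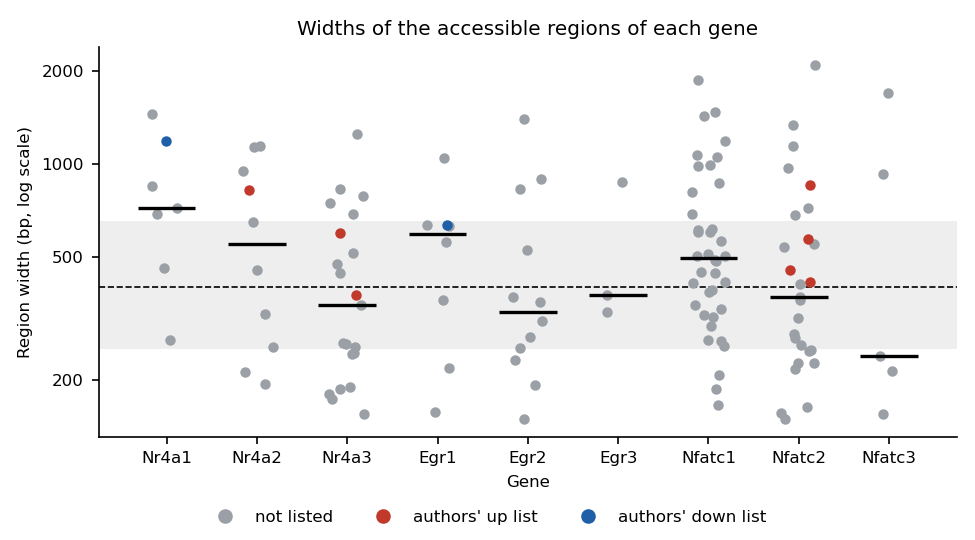
Width of every region (points, bp on a log scale) for each of the 9 genes, coloured by list, with the gene's median as a bar; the dashed line and grey band are the median (400 bp) and interquartile range (252 to 653 bp) of all 91266 regions. The 9 listed regions lie between 378 and 1187 bp, and no gene has its widest region in a list (5.61% of all regions are in either list).

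Genes around these factors were then counted by list of function. Over all regions 4.21% were up and 1.40% down, and of all genes with a region 16.1% had an up and 5.39% a down region. The gene lists had a median of 4 to 13 regions per gene, against 3 over all genes with a region, so that a larger share of their genes could have a listed one. The calcium and calcineurin genes upstream of NFAT were 28, with 419 regions, of which 14 (3.34%) were up and 4 (0.955%) down. Up regions were found at 7 of the 28 genes and down regions at 4, including 2 with both. Ppp3ca, a catalytic subunit of calcineurin, had 3 of 49 regions up, and Itpr1, a calcium release channel, had 2 of 54 up. Dyrk2, a kinase that opposes NFAT activation, had 4 of 49 up and 1 down. Csnk1a1, another kinase of this kind, had 2 of 5 up, and Itpr2 had 1 up and 1 down of 49. Of the 24 genes of the ERK and SRF arm upstream of EGR, 4 had an up and 4 a down region, and 7 of 313 regions (2.24%) were up and 6 (1.92%) down. Of its genes with at least 2 listed regions, Spry2, an inhibitor of ERK signalling, had 1 up and 3 down of 43, Spred1, another such inhibitor, had 3 up of 11 and Dusp6, an ERK phosphatase, had 2 up of 25. Other inhibitors in the list had few or no listed regions, with 0 at Dusp1, Dusp2, Dusp4 and Spry1 and 1, down, at Dusp5. The further family members and cofactors Egr4, Nfatc4, Nfat5, Nab1, Nab2, Rxra and Rxrb had 57 regions, of which 1, at Rxra, was up.

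The 20 other immediate early genes had 379 regions, with 7 up (1.85%) and 11 down (2.90%). Jun, a subunit of AP-1, with which NFAT binds DNA, had 4 up and 1 down of 44. Klf6 had 1 up and 4 down of 49, Nfkbiz 1 up and 2 down of 34, Klf2 2 down of 9 and Myc 2 down of 74. The last list held 20 genes tied to NFAT, EGR or NR4A activity in restrained or exhausted lymphocytes, and 19 of its 329 regions (5.78%) were up and 15 (4.56%) down. Up regions were found at 10 of its 20 genes, against the 16.1% of all genes, and down regions at 3, against 5.39%, with a median of 13 regions per gene. Most of the down regions were at Tox, with 9 of 53 next to 2 up, and Ikzf2, with 4 of 31 next to 1 up. Cblb, an E3 ligase that limits activation, had 2 of 59 down. The inhibitory receptor genes Pdcd1 (5 of 32), Havcr2 (3 of 8) and Ctla4 (2 of 14), and Tnfrsf9 (2 of 13), had up regions only. All 3 at Havcr2 lay within the gene, whereas those at Pdcd1, Ctla4 and Tnfrsf9 all lay outside the gene to which they were nearest. Lag3 (1 of 5) and Tigit (1 of 13) had 1 up region each. No listed region was found at 9 of the 20 genes, among them Cd244a (6 regions), Entpd1 (18), Irf4 (7) and Batf (5). The counts for the lists were made with the nearest protein-coding gene alone, and no other assignment was run for them. These lists were drawn up with earlier results for some of their genes known, and their shares describe the genes in them.

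**Figure D5:**
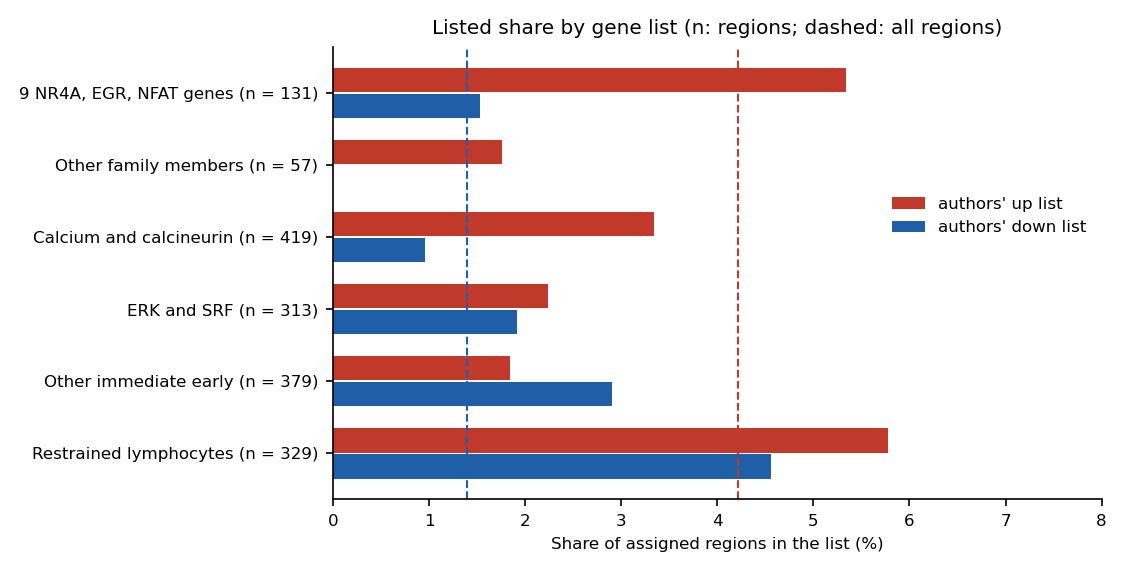
Share of assigned regions in the authors' up (red) and down (blue) lists, in percent, for the 9 genes and the 5 gene lists, with the number of regions in brackets; dashed lines mark the shares over all regions (4.21% and 1.40%). The 9 genes lie close to both lines, at 5.34% and 1.53%.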

How the data were processed

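ATAC-seq was performed on 4 samples, 2 per dose, grouped by the dose in their titles. The authors deposited region positions and widths in bp, with no values per sample, so the planned count test of the doses was not made. The submitters' processing notes name BWA, ArchR, MACS2, HOMER 4.11.1 and mm10. Their settings, and whether samples were pooled for calling regions, which would alter number and width, are not given in the sources used here.

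Region starts were converted from 0-based by adding 1, after which all 5120 up and down regions matched a region of the full list exactly. Regions were assigned to 21900 protein-coding genes of a RefSeq table (GRCm38.p6) with Python 3.11.15, numpy 2.4.6 and pandas 2.3.3, tested on simulated data. Exons were not annotated, and some marker gene results are not reported here. Promoter entries do not include Egr1, Egr3 and Nfatc1.

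Members and lists were chosen with earlier results of these data known. Named were all members, their listed and widest regions and those at gene ends, up to 8 genes per list with at least 2 listed regions, and up to 3 genes of like counts. No test was made, since regions are not replicates. Alternatives were other assignment rules, a width filter and looser matching to the lists.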

Additional observations from a re-analysis of the deposited data

How the results depend on the processing

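No paired analysis was possible because the files give positions without a value for any sample. For the same reason the count test of the doses, its other normalization and filters, leaving out a sample, and stricter thresholds on the authors' calls were not run.

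For the 3 counts (131 regions, 7 up, 2 down), the alternative settings gave 28 values, of which 21 stayed within 1.5 times. The 21 include the looser matching to the lists, which could not change the up or down count. Every listed region is identical to a region of the full list, and the regions of that list do not overlap. Counting only regions within the gene span gave 68 regions, 4 up and 0 down. Keeping regions of at least the median width gave 71 regions. The up count was also 4 with the nearest gene of any biotype, and with every gene within 10 kb or within 50 kb. These 4 were the Nfatc2 regions each time: Nfatc2 kept 4 up regions in all 8 assignments and width filters, whereas the up regions of Nr4a2 and Nr4a3 were 0 under each of those 4 rules. The Nr4a2 region was also not counted with a limit of 100 kb, and 1 of the 2 at Nr4a3 was below the median width. The down regions of Nr4a1 and Egr1 were lost only within the span. Egr2 fell from 12 regions to 1 with the nearest gene of any biotype, to 4 within 10 kb and to 4 at the median width or above. Leaving out genes named LOC or Gm with a number, chosen after the data were seen, raised Nr4a2 from 10 to 17 regions and left its up count at 1.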

Other observations

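The place of the down regions of Nr4a1 and Egr1 was looked for over all genes after it had been seen. A single listed region, down, outside the gene and within 1 kb of it, was found at 17 of the 16392 genes with a region. Besides Nr4a1 and Egr1 these include Ccl4, a chemokine gene of activated NK cells, and Nfkbia, which encodes the inhibitor of NF-kB made after its activation. They also include Amd1, Fxyd5 and Serpina3g. The genes were named from this list after the values were seen, and whether such places share a property was not tested.

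The genes with at least as many regions as Nfatc1 and none in either list were, besides Nfatc1, Ankrd11, Atxn1, Celf2, Ctif, Iqsec1, Rap1b, Rreb1 and Tle3.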
